A study of Homo sapiens with 4 samples.

Results

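The CEACAM genes CEACAM1, CEACAM5, CEACAM6 and CEACAM7 were followed on 4 Affymetrix arrays of human lung cancer cells. They were chosen by name, with measured values in view: CEACAM6 had stood out in earlier results for its low A549 signal with the CHST11 vector and for its dim signal in NCI-H358. All 12 probe sets annotated with 1 of these 4 symbols were taken, of 41091 probe sets that named a single gene. A549 is a lung adenocarcinoma line and NCI-H358 a bronchioloalveolar carcinoma line. Each carried an empty vector or a vector for CHST11, a Golgi sulfotransferase of chondroitin chains, and all 4 cultures had been stably transduced and put through antibiotic selection before RNA was taken. The groups were A549 with empty vector, A549 with CHST11, NCI-H358 with empty vector and NCI-H358 with CHST11, with 1 array in each. The labels do not say whether a culture was a clone or a pool. With no replicate in a group, differences between the vectors within a line are given by size, with no p-value.

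CEACAMs are surface glycoproteins of the immunoglobulin superfamily that bind one another and other CEACAMs across cell contacts, and several serve as receptors for bacteria. CEACAM5, CEACAM6 and CEACAM7 are held in the membrane by a glycosylphosphatidylinositol (GPI) anchor. CEACAM1 crosses the membrane and, in its long form, carries inhibitory tyrosine motifs that recruit the phosphatases PTPN6 and PTPN11. CEACAM5, known as CEA, is a serum marker of colorectal and lung tumours, and CEACAM6 is expressed in alveolar and airway epithelium and overexpressed in many carcinomas.

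CEACAM5 and CEACAM6 are direct neighbours in the gene order of chromosome 19, and their upstream sequences are shown because these were the 2 members with probe sets far below the empty vector level in A549. The RefSeq sequences of build GRCh38.p14 run over the 250 bases before each annotated start, 5′ to 3′ on the gene's strand. CEACAM5 lies at chr19:41708376-41708625 and CEACAM6 at chr19:41755280-41755529, both on the plus strand. Capitals mark the E-box CACGTG, the palindromic motif that USF factors bind.
CEACAM5: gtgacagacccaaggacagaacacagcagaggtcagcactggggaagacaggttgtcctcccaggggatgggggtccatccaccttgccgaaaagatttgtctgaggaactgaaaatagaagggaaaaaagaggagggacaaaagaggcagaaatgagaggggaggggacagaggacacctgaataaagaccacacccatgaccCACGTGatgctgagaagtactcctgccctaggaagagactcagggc
CEACAM6: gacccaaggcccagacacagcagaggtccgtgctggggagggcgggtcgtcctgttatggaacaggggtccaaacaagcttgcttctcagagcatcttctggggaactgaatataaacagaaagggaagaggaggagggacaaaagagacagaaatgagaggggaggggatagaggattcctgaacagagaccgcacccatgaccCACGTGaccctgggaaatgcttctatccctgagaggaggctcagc
The motif ended 40 bases before the CEACAM5 start and 39 bases before the CEACAM6 start, and stood once in each window. It was found, on either strand, in 6.34% of all 35116 promoter windows of this length. The longest run the pair shared around the motif was 18 bases, cacccatgaccCACGTGa, and of all windows only those of CEACAM5 and CEACAM6 held it.

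The matching stretch in the 4 members, found by global alignment to the 46 bases around the CEACAM6 motif, shows where the other members differ. CEACAM7 and CEACAM1 lie on the minus strand, with upstream windows at chr19:41688271-41688520 and chr19:42528482-42528731.
CEACAM6: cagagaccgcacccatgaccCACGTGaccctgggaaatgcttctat
CEACAM5: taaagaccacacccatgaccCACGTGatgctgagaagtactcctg
CEACAM7: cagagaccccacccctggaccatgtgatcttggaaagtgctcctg
CEACAM1: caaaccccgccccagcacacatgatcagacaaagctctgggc
Of the 46 bases, 35 were the same in CEACAM5, 34 in CEACAM7 and 26 in CEACAM1. CACGTG was not found in the 250 bases of CEACAM7 or CEACAM1. Over the whole window, CEACAM7 was closer to CEACAM6 (79.0% identity) than CEACAM5 was (73.6%), and CEACAM1 had 67.6%. A motif match describes the letters and does not show that a factor binds there.

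A signal under 27, the 60th percentile of all values, was taken as not measured. By that limit 4 member probe sets were measured in A549, both of CEACAM5 and both of CEACAM6, and 1 in NCI-H358, of CEACAM1. No CEACAM7 probe set was measured on any array. Just inside the limit was CEACAM5 217291_at in A549 with empty vector, at 30.0, and just outside it CEACAM1 210610_at on the same array, at 24.5. Probe sets that pass through 1 bright array only must differ between the arrays, which holds for both CEACAM5 probe sets.

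**Figure D1:**
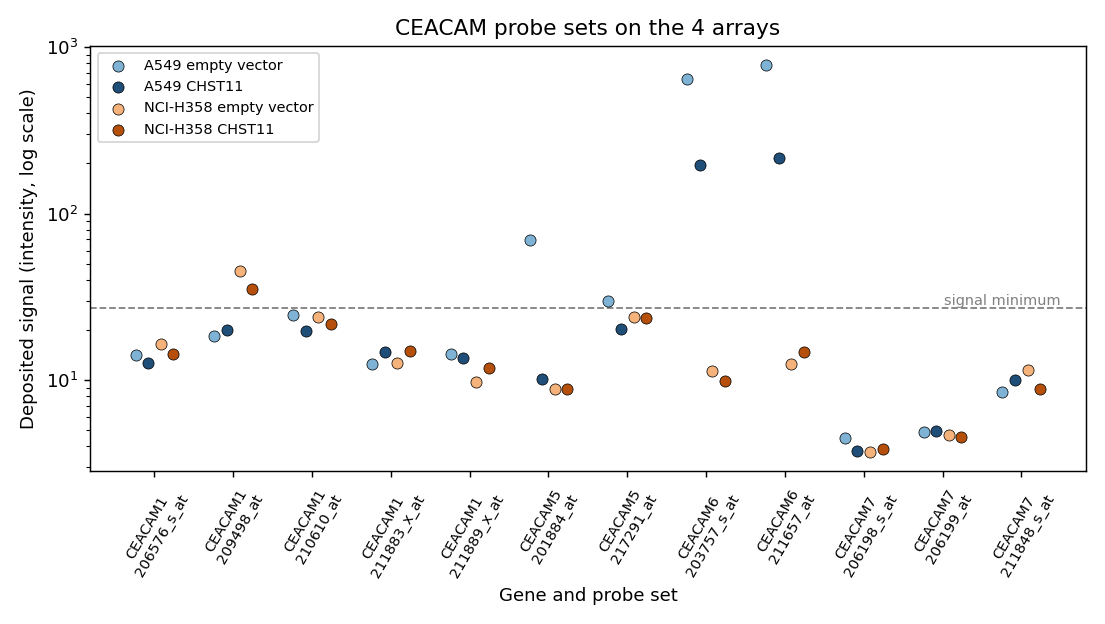
Deposited signal (log axis) of the 12 CEACAM probe sets, with 1 point per array and the signal minimum of 27 as a dashed line. Both CEACAM6 probe sets are bright in A549, at 196 to 778, and lie under 15 in NCI-H358, while CEACAM5 201884_at is above the line only in A549 with empty vector.

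In A549, CEACAM6 was the bright member and its signal was lower with CHST11. The signal of 211657_at was 778 under the empty vector against 214 under CHST11, and that of the second probe set, 203757_s_at, 639 against 196. The CHST11 array was the lower one by both probe sets, 3.63-fold (log2 -1.86) and 3.26-fold (log2 -1.71). Probe sets of like signal, within 0.25 log2 of the same mean, had an SD of the log2 ratio of 0.155 (1325 probe sets) and 0.154 (1446). The transcript was still measured with CHST11, at several times the limit of 27.

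CEACAM5 was measured with the empty vector only. Its probe set 201884_at had 69.7 on the empty vector array and 10.1 on the CHST11 array. The dim value lay under the floor of 16.1 that was set before log2 was taken, so the ratio is a bound: at least 4.32-fold lower (log2 -2.11) against that floor, and at least 2.58-fold lower against the limit of 27. The SD among 2293 probe sets of like signal was 0.243. The second CEACAM5 probe set, 217291_at, had 30.0 and 20.4, a log2 ratio of -0.56 where probe sets of like signal had an SD of 0.317. Against the limit of 27 its bound was at least 1.11-fold, so it says little on the size of the difference. This probe set had the higher mean signal over the 4 arrays and stood for the gene in the table of 1 probe set per gene. Taken per gene in this way CEACAM5 had log2 -0.56, and with the median of its probe sets it had -1.34.

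Among 18721 probe sets measured on both A549 arrays, CEACAM6 211657_at ranked 1 and CEACAM6 203757_s_at 2 from the lowest ratio. CEACAM5 has no rank, since its CHST11 array was not measured, and the bound of 2.58-fold for 201884_at is below both CEACAM6 ratios. At least 2-fold lower were 3 of the 4 measured member probe sets, against 0.061% of all 19676 probe sets measured on at least 1 A549 array, and the same 3 were at least 1.5-fold lower, against 0.671%. These counts describe the contrast that the members were chosen on, so nothing is read from them. As a gauge of array scatter, log2 ratios of probe sets of 1 gene had an SD of 0.158 in A549, from 5117 genes. That gauge does not hold the spread between cultures.

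**Figure D2:**
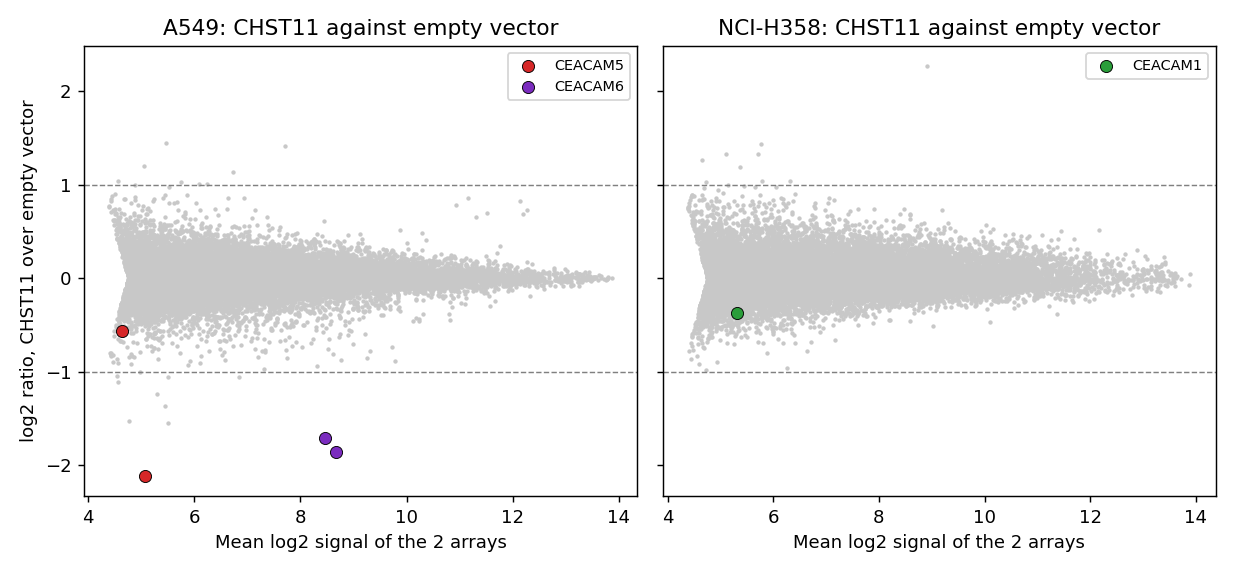
Log2 ratio of CHST11 over empty vector against the mean log2 signal of the pair of arrays, for all measured single-gene probe sets (grey) in A549 (left) and NCI-H358 (right), with measured CEACAM probe sets in colour and dashed lines at 2-fold. In A549 CEACAM5 201884_at (-2.11) and the CEACAM6 pair (-1.86 and -1.71) lie lowest. The CEACAM5 ratio is a bound, with its dim array raised to the floor of 16.1, while CEACAM6 was measured on both A549 arrays. In NCI-H358 CEACAM1 (-0.37) lies within the cloud.

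CEACAM1, the transmembrane member, was not measured in A549. Its 5 probe sets ran from 12.4 to 24.5 there. The 3 CEACAM7 probe sets, of the member best known from colon epithelium, lay between 3.70 and 11.4 over all 4 arrays. A response of these genes in A549 could not be judged at these signals.

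In NCI-H358 the pattern of members was different: CEACAM1 alone was measured, by 1 of its 5 probe sets. Probe set 209498_at had 45.4 with the empty vector and 35.1 with CHST11, a log2 ratio of -0.37, while probe sets of like signal had an SD of 0.236 (2063 probe sets). Its other probe sets ran from 9.68 to 24.1 in this line. At least 1.5-fold lower were 0 of 1 measured member probe sets, against 0.265% of 19619. Among 18644 probe sets measured on both NCI-H358 arrays, it ranked 260 from the lowest ratio.

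CEACAM6 had signals of 12.5 and 14.7 (211657_at) and of 11.4 and 9.87 (203757_s_at) in NCI-H358 with empty vector and CHST11. CEACAM5 201884_at had 8.86 and 8.85 there, and 217291_at 24.0 and 23.6. None of these reached the limit, so neither a fall nor its absence could be read for CEACAM5 and CEACAM6 in this line, and whether their response differed between the lines was not tested.

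The comparison of the cell lines asked how far the members differ between NCI-H358 and A549 whatever the vector. CEACAM6 was brighter in A549 under either vector, and the means of the 2 arrays of each line were at least 15.1-fold (211657_at) and at least 13.1-fold (203757_s_at) apart with NCI-H358 raised to 27. Raised in this way, the log2 difference of 211657_at, NCI-H358 minus A549, was -4.85 or lower between the empty vector arrays and -2.99 or lower between the CHST11 arrays. The limma fit with terms for line and vector gave CEACAM6 a log2 difference, NCI-H358 minus A549, of -4.66 (SE 0.445, adjusted p 0.00111). For CEACAM1, by 209498_at, the limma fit gave 1.06 (SE 0.147, adjusted p 0.00347), from signals of 18.4 and 20.1 in A549 and of 45.4 and 35.1 in NCI-H358. Both NCI-H358 arrays were the brighter ones for this probe set, and their mean was at least 1.48-fold above A549 raised to the limit. The other CEACAM1 probe sets lay under the limit in both lines, so the difference rests on 209498_at alone. CEACAM5, by 217291_at, had -0.05 (SE 0.153, limma adjusted p 0.778). By 201884_at it had -1.06 (SE 0.497, limma adjusted p 0.123). For either CEACAM5 probe set A549 with empty vector was the only measured array, so neither value gives the size of a line difference.

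The same fit called 64.5% of 12271 genes, so a call for CEACAM6 or CEACAM1 is what most genes of these 2 lines had. It left 1 residual degree of freedom per gene, and the 2 arrays of a line carried different vectors. That degree of freedom holds how far the line difference varied between the vectors, and limma drew the variance toward that of all genes. For CEACAM6, with both NCI-H358 arrays at the floor, it comes from the A549 difference between the vectors alone. The p-values do not measure a spread between replicate cultures. That CEACAM6 is dim in NCI-H358 was known when the members were chosen. With no signal minimum, which adds genes that sit at the floor on all arrays, limma's adjusted p was 0.164 for CEACAM6 and 0.192 for CEACAM1, against 8.1e-05 to 0.00327 and 0.00134 to 0.00681 under the other settings that gave a value.

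The other genes of the CEA family were sparse on these arrays. Of 18 listed genes 14 had a single-gene probe set, and 5 were measured in A549 and 4 in NCI-H358. CEACAM19, a distant family member, had 69.3 and 79.6 in A549 and 115 and 109 in NCI-H358. CEACAM3, a granulocyte receptor, had 52.6 and 40.9 in A549 and 53.4 and 38.3 in NCI-H358 by 208052_x_at, log2 ratios of -0.36 and -0.48. Its probe set 210789_x_at had 0.12 and -0.04, so the sign in A549 depended on the probe set. The other CEACAM3 probe set, 217209_at, lay under the limit on all arrays, at 11.1 to 15.3. The pregnancy-specific glycoproteins PSG1, PSG6 and PSG7 stood near the limit, at 20.7 to 34.4 on all arrays by the probe set representing each. Their log2 ratios in A549 were -0.04, 0.21 and -0.23, and PSG1 and PSG6 had -0.27 and -0.11 in NCI-H358. None of the measured genes was 1.5-fold apart in either line, a size that 1.21% of all measured genes reached in A549 and 1.17% in NCI-H358, so that 0 in a short list is near the background here and in the lists that follow. The medians were -0.04 in A549 and -0.19 in NCI-H358, beside 0.01 and 0.00 over all measured genes. CEACAM8, a granulocyte marker, lay between 3.17 and 3.78.

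CEACAM genes are close paralogs, and the letters s and x in a probe set name mark probes that can match more than 1 transcript. CEACAM6 203757_s_at is of that kind and 211657_at is not. Whether a CEACAM6 probe set takes up CEACAM5 RNA, or the reverse, was not tested, since probe sequences were not used here. CEACAM5 201884_at carries neither letter. Both measured CEACAM3 probe sets carry the x, so whether their signal comes from CEACAM3 was not tested either.

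The genes around CEACAM6 on chromosome 19 were set beside it. Of the 20 genes around CEACAM6, 10 on each side in the RefSeq order, 9 that are not members had a single-gene probe set and 4 of these were measured. None of the 4 was 1.5-fold apart between the vectors, which at a background of 1.21% is no result about the neighbourhood. The ribosomal protein gene RPS19 had log2 0.00 (signal 12969 and 12996), the exchange factor gene ARHGEF1 -0.20 and the B cell receptor gene CD79A 0.14. CEACAM3, next but one to CEACAM6, had -0.36 by 208052_x_at, a probe set that can match more than 1 transcript. In NCI-H358 the same 4 ran from -0.48 to -0.01. CEACAM7, CEACAM4 and CEACAM21 on the other side were under the limit, so the low ratios could not be traced beyond CEACAM5 in that direction.

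**Figure D3:**
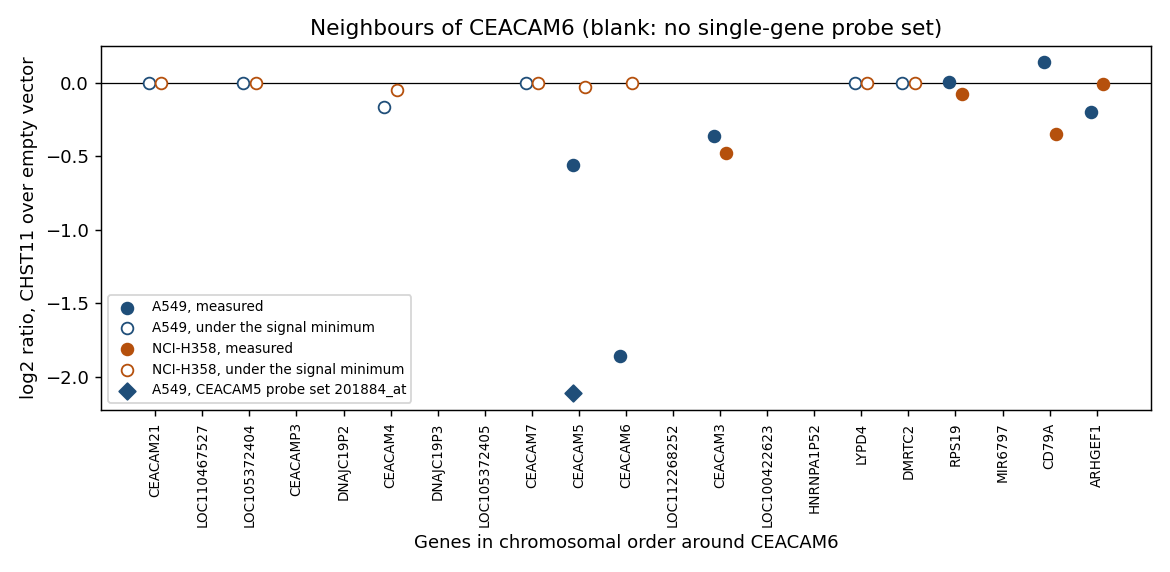
Log2 ratio of CHST11 over empty vector for genes in chromosomal order around CEACAM6, by the probe set representing each gene, in A549 (blue) and NCI-H358 (orange). Filled points were measured, and open points lay under the signal minimum, where the floor pulls ratios to 0. The diamond is CEACAM5 201884_at in A549, which does not represent the gene. CEACAM5 and CEACAM6 are the lowest points, and the measured genes to their right lie between -0.48 and 0.14.

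The genes whose pattern over the 4 arrays lay nearest to CEACAM6, by Euclidean distance of centred log2 signals among 12270 genes, were FBN2, FGB, COL4A1, SUSD2 and GSDME, at distances of 0.70, 1.01, 1.03, 1.22 and 1.24. All 5 were far brighter in A549 than in NCI-H358 under either vector. FBN2, a microfibril protein, had 585 and 320 in A549 (log2 -0.87) and 5.04 and 7.48 in NCI-H358. FGB, the fibrinogen beta chain, had 539 and 393 (log2 -0.46), and COL4A1, a basement membrane collagen chain, 493 and 371 (log2 -0.41). SUSD2, a sushi domain membrane protein, had -0.16 and GSDME, a gasdermin, -0.16. CEACAM5 was not among them, with a distance of 3.25 for 201884_at (1356 genes nearer) and 4.03 for 217291_at (4829 genes nearer). The distance was taken with signals under the limit raised to it. Raised so, NCI-H358 minus A549 between the empty vector arrays was log2 -1.37 for CEACAM5 201884_at and -4.85 for CEACAM6 211657_at. A gene as dim as CEACAM5 could not come near CEACAM6 by this distance, so likeness of their patterns was not tested.

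Genes of GPI anchor synthesis, the route by which CEACAM5 and CEACAM6 are held at the membrane, were all measured. Over the 28 genes the median log2 ratio was 0.13 in A549 and 0.01 in NCI-H358, beside 0.01 and 0.00 over all measured genes. With 1 array per vector, a shift of this size was not tested. None of the 28 was 1.5-fold apart in either line, near the background of 1.21% and 1.17%. PIGH, a subunit of the enzyme that starts the anchor, was highest in A549 (0.32, signal 157 and 197), and PIGF, of the ethanolamine phosphate step, lowest (-0.07). In NCI-H358, PGAP1, which remodels the anchor, was highest (0.43, signal 73.7 and 99.3) and PIGN lowest (-0.25), although a second PIGN probe set had 0.19.

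Surface proteins other than CEACAMs with a GPI anchor were followed as well. Of 22 measured in A549, 0 were 1.5-fold lower and 1 was 1.5-fold higher, with a median of 0.03. The highest was CD14, a lipopolysaccharide receptor (0.67, signal 24.2 and 38.4), with the empty vector array under the limit. CD14 was the 1 gene counted as 1.5-fold higher, so that count rests on a signal taken as not measured. The lowest was GFRA1, a coreceptor for GDNF (-0.29, signal 104 and 85.0). Among bright genes of the list the signals of both vectors were close for some and further apart for others. For CD24, a mucin-like adhesion protein, they were 7578 and 7623, and for CD59, the complement inhibitor, 1514 and 1567. CD109 had 591 and 491 in A549 (log2 -0.27). In NCI-H358, 0 of 21 were 1.5-fold lower and LY6D, an epithelial surface protein, was higher (0.80, signal 59.3 and 103), with PLAUR, the urokinase receptor, lowest (-0.33).

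Of partners and signalling proteins of CEACAMs, 0 of 18 measured genes were 1.5-fold apart in either line, near the background of 1.21% and 1.17%, with medians of -0.02 in A549 and 0.14 in NCI-H358. SRC, a kinase that acts below CEACAM6, was the highest in A549 (0.26, signal 408 and 488), although a dimmer SRC probe set had -0.10. FN1, fibronectin, was the lowest (-0.39, signal 1444 and 1105). In NCI-H358 the highest was ITGAV, the alpha V integrin chain (0.25), and the lowest AKT1, a survival kinase (-0.26). PTPN6 and PTPN11, which bind the long tail of CEACAM1, had 0.11 and -0.02 in A549 and 0.23 and 0.20 in NCI-H358.

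Transcription factors of lung and gut epithelium were measured for 17 of the 21 genes with a probe set in A549 and 19 in NCI-H358, and none was 1.5-fold apart. The medians were 0.05 and 0.06. The highest in A549 was ELF3, an epithelial ETS factor (0.39, signal 284 and 371), and the lowest SP1 (-0.19, signal 334 and 293). In NCI-H358 the highest was SP3 (0.34) and the lowest USF2 (-0.19). USF2, 1 of the pair of USF proteins that bind the E-box, had 320 and 355 in A549 (0.15) and -0.10 by another of its probe sets, while USF1 lay under the limit at 16.5 to 20.3.

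**Figure D4:**
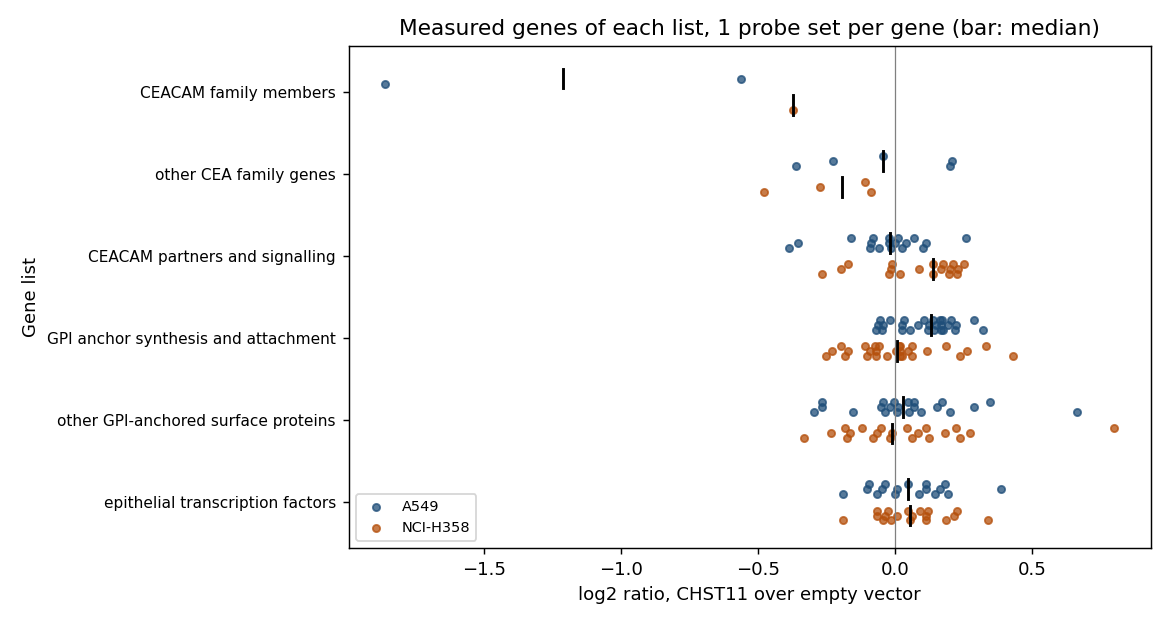
Log2 ratio of CHST11 over empty vector for the measured genes of 6 lists, 1 probe set per gene, in A549 (blue) and NCI-H358 (orange), with the median of each list as a black bar. The members CEACAM6 (-1.86) and CEACAM5 (-0.56) in A549 lie to the left of the other lists shown, whose medians lie between -0.19 and 0.14. Of the marker lists not shown, EPCAM (-0.77) and CDH17 (-0.64) were lower in A549 than CEACAM5.

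The arrays were checked in several ways. CHST11 itself was 129 and 344 in A549 and 220 and 1058 in NCI-H358 by 219634_at, in the direction of the labels, and its other 2 probe sets stayed between log2 -0.16 and 0.14. Median signals of the arrays ran from 15.9 to 16.3. The keratins KRT8 and KRT18 marked both lines as epithelial, at 1926 to 13099. Of 7 alveolar type II markers, 3 were measured in A549 and 5 in NCI-H358. The lung factor NKX2-1 was not measured in A549 (5.62 and 6.39) and was in NCI-H358 (247 and 264). SFTPD and NAPSA were under the limit in both lines. ABCA3 had 108 and 116 in A549 (log2 0.09). In NCI-H358 ABCA3 had 18.6 and 37.8 (log2 1.03), with the empty vector array under the limit. Of 6 colon markers only CDH17 was measured, in A549, and of endothelial and fibroblast markers 1 each, PECAM1 at 34.6 to 40.0 and COL1A1 at 153 to 170.2. Leukocyte markers, 10 on the array, had summed signals of 129 to 132 in A549 and 194 to 204 in NCI-H358, with PTPRC at or under 5.69. The measured genes of that list were CSF3R and CD3E in A549, at 26.0 to 32.0, and CORO1A (83.5 and 83.6) and CSF3R (35.6 and 28.9) in NCI-H358.

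Some markers were also lower with CHST11 in A549, where 82 of 11448 measured genes were at least 1.5-fold lower. EPCAM, an epithelial adhesion molecule, had 210 and 123 (log2 -0.77), and CDH17, an intestinal cadherin, 169 and 108 (log2 -0.64). The other epithelial markers CDH1, KRT8, KRT18 and KRT19 had 0.04, 0.03, 0.02 and -0.10. In NCI-H358 EPCAM was higher with CHST11 (4684 and 5599, log2 0.26). The control probe sets at the 5′ end were higher on the A549 CHST11 array, by log2 0.34 for GAPDH and 0.16 for actin, against 0.04 and -0.01 at the 3′ end, so the 2 A549 arrays differed in their balance of 5′ and 3′ signal. In NCI-H358 these values were 0.00 and -0.14 at the 5′ end and 0.03 and 0.03 at the 3′ end. The part of the balance of 5′ and 3′ signal in the CEACAM5 and CEACAM6 ratios was not tested. In bulk RNA, fewer cells with CEACAM6 and less CEACAM6 RNA per cell cannot be told apart.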

How the data were processed

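RNA from 4 cultures was measured on 1-colour Affymetrix arrays of 54675 probe sets. The authors deposited linear intensities, from 2.46 to 15499, made with MAS5 per the submitters' processing notes; for its settings, version and scaling target, nothing is given in the sources used here. Scale was settled from the values, and whether a further normalization followed was not. Groups came from the sample titles, with 1 array each. Values were floored at 16.1, the 50th percentile, before log2; a probe set or gene was measured in a line with a signal of at least 27 on 1 or more arrays. The platform annotation, which can be old, gave 1 symbol to 41091 probe sets, several to 1801 and none to 11721; 62 controls were left out. Each of 19775 genes was represented by the probe set of highest mean log2 signal, computed before the floor.

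Within a line, log2 ratios were counted by size (2-fold and 1.5-fold). The cell line difference was fitted over all genes in limma (3.58.1, under R 4.3.3; lmFit and eBayes with line and vector as terms, called at a Benjamini-Hochberg adjusted p of 0.05) and tested on simulated data. Promoters of all 4 members were read from RefSeq (GRCh38.p14) and aligned with Biopython 1.88; tables and plots used Python 3.11.15, NumPy 2.4.6, pandas 2.3.3 and matplotlib 3.10.9. All members, all measured genes of the other CEA family list, the extremes of each other list, the 5 genes nearest to CEACAM6 and its 20 neighbours were to be named. CEACAM3 by its second probe set, CD24, CD59, CD109, PTPN6, PTPN11, USF1, USF2 and the array checks were named after their values were seen. For the cell marker lists used as array checks, the extremes were not all named. The members and lists were chosen with earlier results of these data known. Alternatives were quantile normalization, median centring, cyclic loess, other floors, signal minimums and probe set rules, eBayes with a trend and a fit with no vector term.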

Additional observations from a re-analysis of the deposited data

How the results depend on the processing

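Among values of single members under the alternatives, 58 stayed within the probe set SD, or on their side of the limma threshold, 4 moved further and 2 lost the call, and none changed sign. The CEACAM6 ratios in A549 ran from log2 -1.87 to -1.84 (211657_at) and from -1.71 to -1.68 (203757_s_at) over quantile normalization, median centring and cyclic loess. CEACAM5 201884_at had -2.79 when the floor was lowered to the 25th percentile or removed. Taken per gene, CEACAM5 had -1.34 with the median of probe sets and -2.11 by the probe set with the highest single signal, a choice made after seeing the data. With the median of probe sets CEACAM1 was not measured in NCI-H358, and with the minimum at the 75th percentile CEACAM1 and CEACAM5 were not measured.

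Genes at least 2-fold apart numbered 13 in A549 and 6 in NCI-H358. Under the median of probe sets they were 8 and 3, and with the minimum at the 75th percentile 5 and 3, where fewer genes were tested. The 7909 limma calls between the lines became 1905 with no signal minimum. No paired analysis was possible because each group had 1 array and the labels give no replicate numbers. The fit between the lines had vector as a term, which sets the lines side by side within each vector. No array could be left out of a group of 1. The number of arrays limits the precision of all values.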
